A study of Homo sapiens with 4 samples.

Results

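The IL6 family of cytokines, its receptors and the transcription factor STAT3 were followed in 2 prostate cancer cell lines after knockdown of ESS2, a nuclear protein that associates with spliceosomal and chromatin factors. The members were the 4 cytokine genes IL6, LIF, IL11 and CLCF1, the 4 receptor genes IL6R, IL6ST, OSMR and LIFR, the transcription factor gene STAT3 and the feedback inhibitor gene SOCS3, 10 genes of the 25122 with a symbol on the array. They were chosen on the ratios between knockdown and control cells on these same arrays, in which IL6 rose in both lines, so all ratios below are descriptions and no test was made of them. The array held 21 probes for these genes, each of which was read on its own.

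RNA was taken from PC3 and DU145 cells, established androgen-insensitive prostate cancer lines, and hybridized to 4 one-colour Agilent human expression arrays, 1 for each condition. In each line, control cells carried an shRNA against luciferase (PC3-shC and DU145-shC) and knockdown cells carried an shRNA against ESS2 (PC3-shESS2 and DU145-shESS2), grown in RPMI1640 with 10% serum. The labels describe lentiviral transduction, whereas the methods describe plasmid transfection and puromycin selection of stable PC3 cells, so the route was not settled, and the methods do not describe the knockdown or the arrays of DU145 cells. Each condition was 1 RNA sample, and whether the cells were a selected pool or a clone is not given in the sources used here.

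Each value is a processed signal, that is, spot intensity after background subtraction, and each ratio is the log2 of knockdown over control after division by the 75th percentile of the array. That percentile was 263, 290, 212 and 218 on the PC3-shC, PC3-shESS2, DU145-shC and DU145-shESS2 arrays. Between 50.8 and 52.6% of spots stood well above background, and no non-control spot was saturated. The ± beside a ratio is the error that the scanner software gives the spots. The SD of the log2 ratio between replicate spots of 1 probe had a median of 0.079 in both lines, and of 0.19 in PC3 and 0.25 in DU145 for signals under 100. Neither covers the spread between cultures, since there was 1 array for each condition. In such bulk RNA, fewer cells with a transcript and less transcript in each cell cannot be told apart. All 5 epithelial markers on the list were well above background on all arrays, with a summed signal from 61600 to 268000. Of these, EPCAM, an epithelial adhesion protein, read 2120 in DU145-shC and 357 in DU145-shESS2 cells, a log2 ratio of -2.61. It was the only epithelial marker past 2-fold in either line. The prostate luminal marker KLK3 was not well above background on any array. The summed signal of 3 endothelial markers was 592 in PC3-shC and 117 in PC3-shESS2 cells and 74.1 and 82.1 in DU145, and that of the leukocyte markers was 327 and 166 in PC3 and 242 and 369 in DU145. Of the 5 fibroblast markers, 3 genes were well above background in PC3 and 2 in DU145, with a summed signal from 97.8 to 307. The part of these markers in the results was not tested.

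The targeted gene was lower in both lines. ESS2 read 133 with control shRNA and 53.6 with ESS2 shRNA in PC3 cells, a log2 ratio of -1.45 ± 0.21. In DU145 cells it read 85.7 and 17.3, a log2 ratio of -2.35 ± 0.25. GAPDH, a glycolytic enzyme used as a reference, had log2 ratios of 0.18 and 0.04, and the brighter probe of ACTB, a cytoskeletal actin, had 0.15 and -0.04.

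Cytokines of the IL6 family are secreted proteins that bind a ligand-specific receptor together with gp130, the shared signalling chain encoded by IL6ST. IL6 uses IL6R and gp130, IL11 uses its own receptor and gp130, LIF uses LIFR and gp130, and oncostatin M uses OSMR or LIFR with gp130. Bound receptors activate Janus kinases, which phosphorylate STAT3, and STAT3 then turns on genes that include its own inhibitor SOCS3. In prostate cancer, IL6 is known as an autocrine and paracrine growth and inflammation signal.

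Among the member probes measured on both arrays, IL6 had the highest ratio in both lines. Its brighter probe had a signal of 3600 in PC3-shC and 24400 in PC3-shESS2 cells, and of 336 in DU145-shC and 1930 in DU145-shESS2 cells. The level was thus higher in knockdown than in control cells of each line, and the DU145-shESS2 signal was still lower than that of PC3 control cells. The log2 ratio was 2.62 ± 0.20 in PC3, a 6.15-fold higher level, and 2.48 ± 0.20 in DU145, a 5.59-fold higher level. The ratios of the lines differed by -0.14 (DU145 minus PC3), within the scanner error of that difference, 0.29. In control cells, the level of this probe in PC3 was 8.64-fold that in DU145. Over 8 other ways of processing, the ratio stayed between 2.52 and 2.71 in PC3 and between 2.33 and 2.66 in DU145. Those for dim or outlier spots did not act on this bright probe. As the mean of both IL6 probes, of which the dim one gives only a bound, it was 1.62 and 1.43. Each ratio rests on 1 array for each condition. By RT-qPCR, the paper reports IL6 as unchanged in PC3-shESS2 cells, and those measurements were not used here.

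The second IL6 probe, matched to a transcript model of the gene, was dim. It read 2.03 in PC3-shC and 1.96 in DU145-shC cells, neither well above background, and 15.2 in PC3-shESS2 and 11.5 in DU145-shESS2 cells, both well above it. With the control value set to the lowest signal well above background on that array, knockdown cells were at least 1.54-fold higher in PC3 and at least 1.29-fold higher in DU145. Both probes of IL6 thus read higher in the knockdown cells of both lines.

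**Figure D1:**
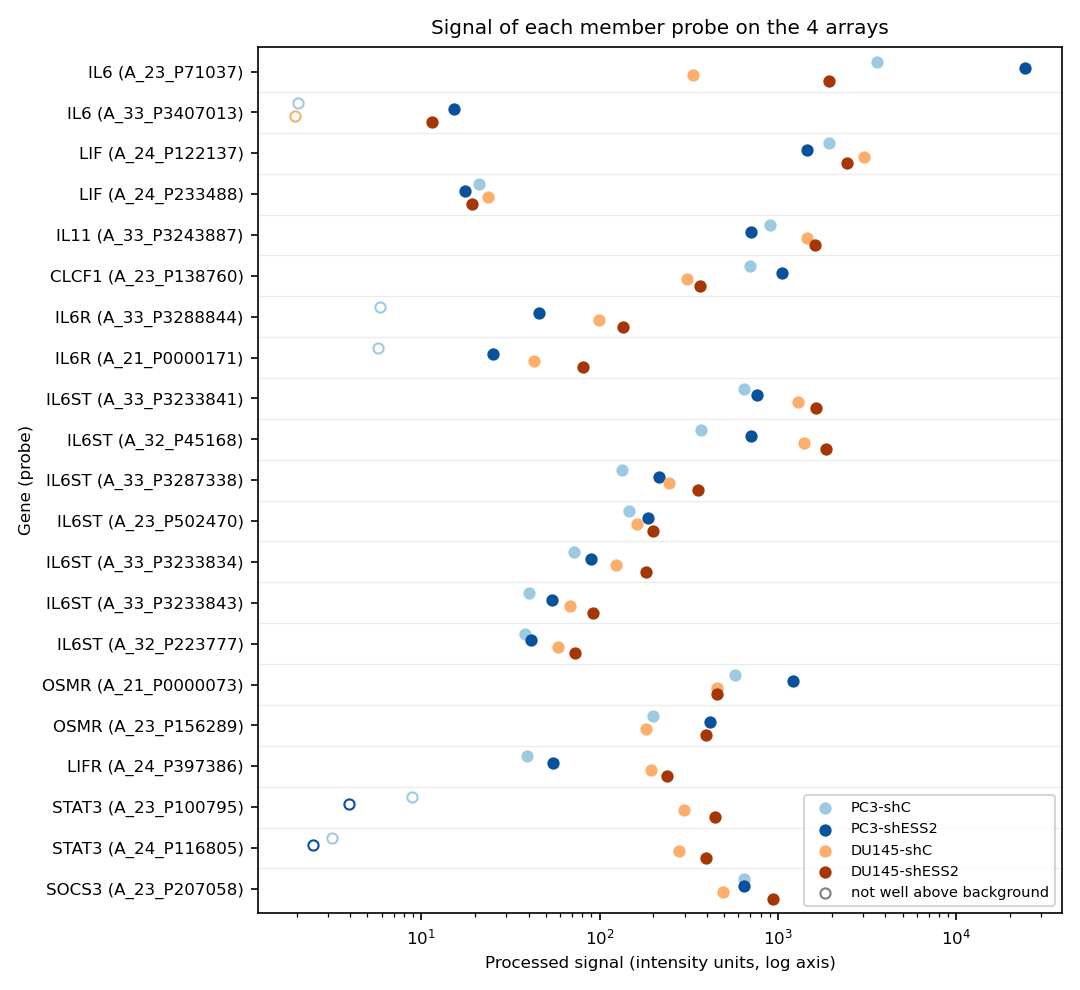
Processed signal (log axis) of each of the 21 member probes on the 4 arrays, 1 point for each array, with open circles for spots not well above background. The brighter IL6 probe moves from 3600 to 24400 in PC3 and from 336 to 1930 in DU145, and the STAT3 probes are dim on both PC3 arrays only.

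The promoter windows of the 3 members with a probe past 2-fold (IL6, IL6R and OSMR) are shown so that the letters upstream of the genes that moved can be read beside their values. Each runs from 250 bases before to 50 bases after the start of the gene in RefSeq (GRCh38.p14), at chr7:22726950-22727249 for IL6, chr1:154405093-154405392 for IL6R and chr5:38845762-38846061 for OSMR, all on the plus strand. Capitals mark matches, on either strand, to the letters GGGANTTTC (NF-kB type), TTGCNNAA (C/EBP type), TGANTCA (AP-1 type) and TTCNNNGAA (STAT type).
IL6: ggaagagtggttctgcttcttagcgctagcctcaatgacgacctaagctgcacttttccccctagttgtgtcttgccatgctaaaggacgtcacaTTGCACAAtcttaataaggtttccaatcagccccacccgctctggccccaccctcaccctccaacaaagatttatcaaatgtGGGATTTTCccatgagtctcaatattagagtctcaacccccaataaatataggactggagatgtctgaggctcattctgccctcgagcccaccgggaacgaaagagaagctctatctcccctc
IL6R: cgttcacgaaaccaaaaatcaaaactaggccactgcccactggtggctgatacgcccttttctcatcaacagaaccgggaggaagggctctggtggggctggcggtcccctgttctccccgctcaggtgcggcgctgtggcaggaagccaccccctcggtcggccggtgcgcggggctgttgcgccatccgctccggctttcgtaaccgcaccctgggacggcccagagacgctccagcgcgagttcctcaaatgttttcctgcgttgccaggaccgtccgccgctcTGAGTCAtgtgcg
OSMR: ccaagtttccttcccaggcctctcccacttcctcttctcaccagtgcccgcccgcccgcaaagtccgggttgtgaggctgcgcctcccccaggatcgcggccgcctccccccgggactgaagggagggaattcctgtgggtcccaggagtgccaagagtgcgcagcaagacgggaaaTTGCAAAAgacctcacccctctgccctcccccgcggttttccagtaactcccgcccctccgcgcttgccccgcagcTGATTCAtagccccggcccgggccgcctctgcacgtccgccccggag

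The IL6 window held 1 NF-kB type match that begins 73 bases before the start and 1 C/EBP type match that begins 155 bases before it. The OSMR window held a C/EBP type match that begins 73 bases before the start and an AP-1 type match just after it, and the IL6R window held 1 AP-1 type match. No STAT type match lay in these 3 windows. Members that did not pass 2-fold held matches too, with 1 AP-1 type match in the window of IL11 and, over the 3 windows of LIFR, 2 STAT type matches and 1 C/EBP type match, while those of IL6ST, STAT3 and SOCS3 held none. Of all 35116 promoter windows in the table, 1.28% held the NF-kB type letters, 10.5% the C/EBP type, 7.71% the AP-1 type and 7.66% the STAT type. A match of letters is a description of the sequence and not a measured site. The table held windows for 8 of the 10 members, and LIF and CLCF1 were not among them.

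The other 3 cytokines moved by less than 2-fold in both lines. LIF, which acts through LIFR and gp130, had signals of 1930 and 1460 in PC3-shC and PC3-shESS2 cells and of 3030 and 2440 in DU145-shC and DU145-shESS2 cells. Its log2 ratios were -0.54 ± 0.20 in PC3 and -0.35 ± 0.20 in DU145. The second LIF probe was dimmer and gave -0.40 ± 0.28 and -0.34 ± 0.26. Both LIF probes therefore read lower in knockdown cells of both lines, the direction opposite to IL6, by amounts of about 1 to 3 scanner errors.

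IL11, a gp130 cytokine with its own receptor, read 903 in PC3-shC and 702 in PC3-shESS2 cells, a log2 ratio of -0.50 ± 0.20. In DU145 it read 1450 and 1620, a log2 ratio of 0.12 ± 0.20, which is within the scanner error of 0. CLCF1, which signals through the CNTF receptor with LIFR and gp130, read 701 and 1060 in PC3 and 311 and 365 in DU145. Its log2 ratios were 0.46 ± 0.20 and 0.19 ± 0.20, higher than the scanner error in PC3 and within it in DU145.

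IL6R encodes the chain that binds IL6 itself. In PC3-shC cells its probes read 5.91 and 5.70, too dim to stand well above background. In PC3-shESS2 cells they read 46.0 and 25.4, both well above it. With the control raised to the lowest signal well above background on its array, the knockdown level was at least 4.67-fold by the first probe. By the second it was at least 2.58-fold. The scanner errors of the log2 ratios of the signals before raising were 0.57 and 0.63. In DU145 cells the first probe read 99.7 and 135, a log2 ratio of 0.40 ± 0.21, and the second read 42.8 and 80.6, a log2 ratio of 0.87 ± 0.22. IL6R was thus detected on 3 of the 4 arrays and was higher in knockdown cells by both probes in both lines. PC3 control cells were at least 13.8-fold and at least 5.94-fold below DU145 control cells by these probes. Over 7 other ways of processing, these log2 ratios of PC3 over DU145 ran from -4.39 to -1.61 and from -3.22 to -0.90. After normexp background correction with an offset of 50, which compresses dim values, the log2 ratios of knockdown over control in PC3 were 0.56 and 0.23. These lie below the bounds given above.

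IL6ST encodes gp130, the chain that every member cytokine needs. Its 7 probes were well above background on all 4 arrays. In PC3 their log2 ratios ran from -0.04 to 0.80, and 6 of the 7 were above 0. In DU145 they ran from 0.25 to 0.51, and all 7 were above 0. The probe with the highest ratio in PC3 (A_32_P45168) read 368, 706, 1400 and 1850 in PC3-shC, PC3-shESS2, DU145-shC and DU145-shESS2 cells, with log2 ratios of 0.80 ± 0.20 and 0.36 ± 0.20. The probe with the highest mean signal (A_33_P3233841) read 645, 760, 1290 and 1630 on the same arrays, with log2 ratios of 0.10 ± 0.20 and 0.30 ± 0.20. The probes are annotated to several transcripts of the gene, and their ratios in PC3 were further apart than the scanner error. None passed 2-fold in either line.

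OSMR encodes the chain that pairs with gp130 to bind oncostatin M. The probe with the higher mean signal (A_21_P0000073) read 574 and 1220 in PC3-shC and PC3-shESS2 cells and 453 and 457 in DU145-shC and DU145-shESS2 cells, with log2 ratios of 0.95 ± 0.20 and -0.03 ± 0.20. The other (A_23_P156289) read 198 and 418 in PC3 and 183 and 393 in DU145, with log2 ratios of 0.94 ± 0.21 and 1.06 ± 0.20. The probes gave nearly the same ratio in PC3 and disagreed in DU145, where only the second moved. They are annotated to different transcripts of the gene. Both PC3 ratios lay just under 2-fold and passed it with the authors' scaled values, at 1.04 and 1.03.

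LIFR encodes the receptor chain shared by LIF and CLCF1. It read 39.4 and 54.8 in PC3-shC and PC3-shESS2 cells and 193 and 239 in DU145-shC and DU145-shESS2 cells. The log2 ratios were 0.33 ± 0.22 and 0.27 ± 0.20. Of the 12 receptor probes, which belong to 4 genes and of which 7 are of IL6ST, 11 had a ratio above 0 in each line. Several of these ratios were within the scanner error of 0 or close to it. The median was 0.44 in PC3 and 0.37 in DU145, beside medians of -0.032 and -0.027 over all probes compared.

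**Figure D2:**
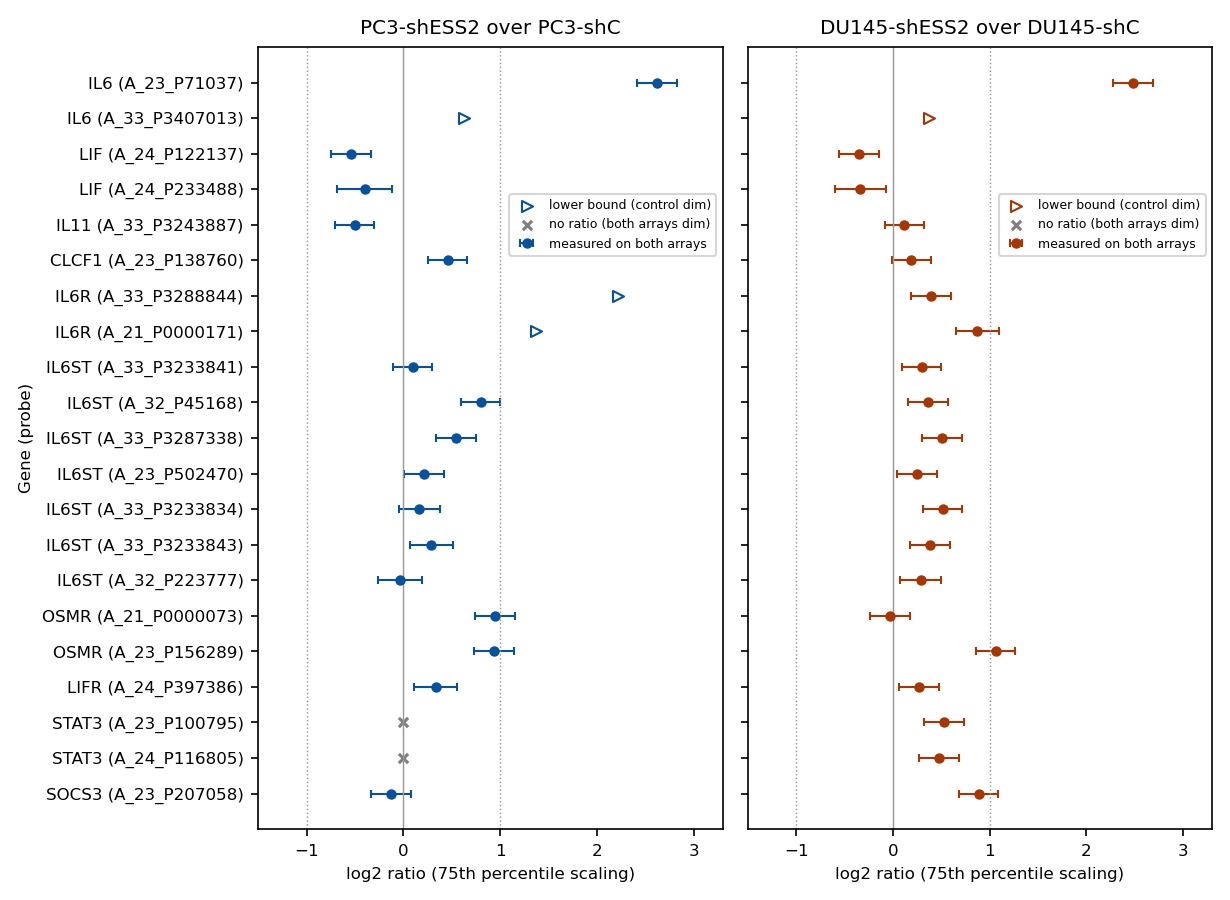
Log2 ratio of knockdown over control for each member probe in PC3 (left) and DU145 (right). Points are probes measured on both arrays with bars of 1 scanner error, open triangles are lower bounds where the control spot was dim, crosses mark probes with no ratio, and dotted lines mark 2-fold. IL6 stands at 2.62 and 2.48, and the 2 OSMR probes part in DU145 only.

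STAT3, the transcription factor that these receptors activate, was detected in DU145 cells only. Its probes read 8.87 and 3.17 in PC3-shC and 3.94 and 2.49 in PC3-shESS2 cells, none of them well above background, so no ratio was formed in PC3. In DU145-shC cells they read 299 and 277, and in DU145-shESS2 cells 443 and 396, with log2 ratios of 0.53 ± 0.20 and 0.48 ± 0.20. With dim values raised, control DU145 cells were at least 41.5-fold and at least 38.4-fold above control PC3 cells by these probes. These are log2 ratios of PC3 over DU145 of -5.37 and -5.26. Over 7 other ways of processing they ran from -5.83 to -2.46 and from -6.76 to -2.45. PC3 is known in the field as a line without STAT3.

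The genes next to STAT3 on chromosome 17 were read after the STAT3 values had been seen. From DHX58 to STAT3, 10 neighbouring genes with 11 probes in RefSeq order, no probe was well above background on either PC3 array. In DU145 cells, 9 of these 11 probes were with control shRNA and 10 with ESS2 shRNA. Among them were KAT2A, a histone acetyltransferase, with 7.44 and 3.74 in PC3-shC and PC3-shESS2 cells against 3220 and 3430 in DU145-shC and DU145-shESS2 cells, and STAT5B, a related STAT factor, with 1.81 and 1.85 against 903 and 708. The window had 13 genes on each side of STAT3. Its other 17 genes had 22 probes, of which 21 and 20 were well above background on the PC3 arrays and 22 on both DU145 arrays. Just past STAT3, 1 of the 2 probes of CAVIN1, a caveolar coat protein, was dim in PC3 while the other was bright on all arrays. The next gene, ATP6V0A1, a proton pump subunit, read 21.7 and 10.2 in PC3, the latter dim, against 4170 and 4800 in DU145, and was 238-fold lower in PC3-shC than in DU145-shC cells. Over the whole array, 7.38% of the 27904 probes well above background on both DU145 arrays were dim on both PC3 arrays. The PC3 and DU145 arrays were on different slides with different software releases, so slide and line cannot be told apart, and DNA copy number was not measured.

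**Figure D3:**
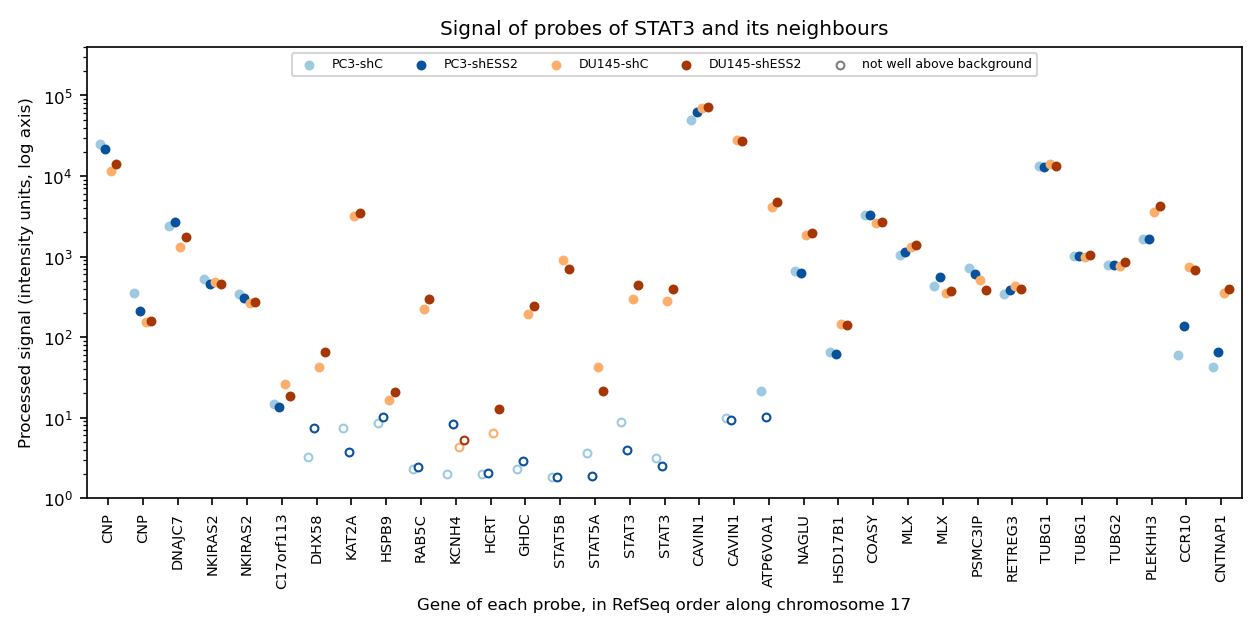
Processed signal (log axis) of the probes of STAT3 and of 13 genes on each side of it, in RefSeq order along chromosome 17, with 1 point for each array and open circles for spots not well above background. The 11 probes from DHX58 to STAT3 are all open on both PC3 arrays.

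SOCS3 encodes the inhibitor that STAT3 induces and that blocks gp130 signalling. It read 643 in PC3-shC and 648 in PC3-shESS2 cells, a log2 ratio of -0.13 ± 0.20. In DU145 it read 492 and 935, a log2 ratio of 0.89 ± 0.20. SOCS3 was thus level in PC3 within the scanner error and higher in DU145-shESS2 than in DU145-shC cells, by less than 2-fold. Its ratio in DU145 exceeded that in PC3 by 1.02 ± 0.29. It was the only one of the 16 member probes well above background on all 4 arrays whose ratios differed by more than 1 between the lines, and 8.55% of all such probes on the array did so in either direction. The OSMR probe A_21_P0000073 differed by -0.97 ± 0.29 and came next.

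In PC3, 3 of the 19 member probes compared, 1 of IL6 and 2 of IL6R, were more than 2-fold higher and 0 were more than 2-fold lower, while over all probes compared 4.13% were higher and 3.53% lower. In DU145, 2 of 21, 1 of IL6 and 1 of OSMR, were higher and 0 lower, beside 2.40% and 2.65% of all probes. The members were picked from these ratios, so nothing is read from their counts. Ratios were above 0 for 14 of the 19 probes in PC3 and 18 of the 21 in DU145, where IL6ST alone has 7 probes. Their medians were 0.33 and 0.37, beside -0.032 and -0.027 over all probes compared. Scaling the arrays to their medians moved the median ratio of all probes in PC3 by -0.10 and turned the split of 1247 higher and 1064 lower into 986 and 1326, but left the members at 3 higher and 0 lower. The authors' scaled values gave 1539 higher and 888 lower over all probes in PC3, with 5 member probes higher. Under normexp or the filter on both arrays, 1 member probe was higher.

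**Figure D4:**
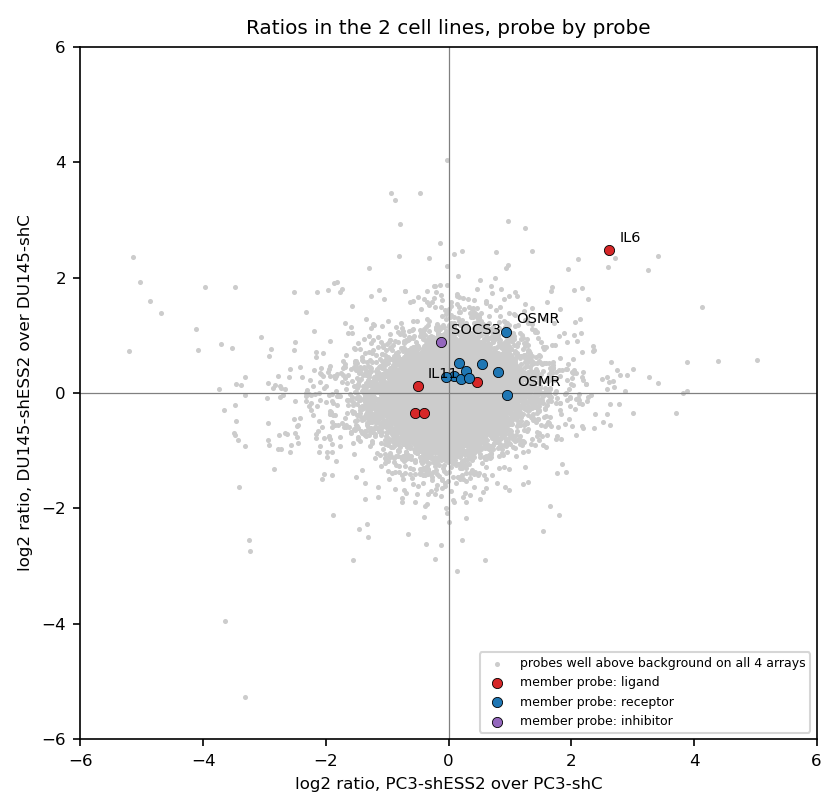
Log2 ratio in DU145 against that in PC3 for each of the 24880 probes well above background on all 4 arrays (grey, 1 outside the axes), with the 16 member probes coloured by role. The brighter IL6 probe lies at 2.62 and 2.48, SOCS3 at -0.13 and 0.89, and most receptor probes lie a little above 0 on both axes.

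Between control cells, most members were lower in PC3 than in DU145. Of 20 member probes compared, 1, of IL6, was more than 2-fold higher in PC3 and 10 were more than 2-fold lower, of IL6R, IL6ST, LIFR and STAT3, beside 18.6% higher and 22.2% lower over all probes. LIFR was 6.08-fold lower in PC3-shC than in DU145-shC cells, and the 7 IL6ST probes were 1.39-fold to 4.72-fold lower. CLCF1 was 1.82-fold higher in PC3, and the brighter LIF probe and IL11 were 1.95-fold and 1.99-fold lower. The difference in SOCS3 and in both OSMR probes was within 0.20 on the log2 scale and changed sign with the scaling. Scaling to the medians moved the median of all probes by 0.45 between the lines. It gave 2 member probes higher and 6 lower, and over all probes it turned a split of 5926 higher and 7070 lower into 9659 and 4632. The authors' scaled values moved that median by -0.44, with 3660 higher and 10581 lower.

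The genes whose pattern over the 4 arrays was nearest to the brighter IL6 probe were found by the distance between centred log2 levels among 19504 probes. They were KPNA7, an importin alpha, at a distance of 0.52, then IFIT2, an interferon-induced gene, followed by the ephrin receptor gene EPHA4 at 1.43, the keratin pseudogene KRT16P2 at 1.45 and TENT5A, a poly(A) polymerase gene, at 1.56. KPNA7 read 198 and 939 in PC3-shC and PC3-shESS2 cells and 12.7 and 65.5 in DU145-shC and DU145-shESS2 cells, with log2 ratios of 2.10 and 2.33. IFIT2 read 363, 1930, 23.8 and 75.8 on the same arrays, with log2 ratios of 2.27 and 1.63. Like IL6, both were higher in PC3 than in DU145 control cells and higher in knockdown than in control cells of each line. Over 4 arrays many probes can share such a pattern.

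Beyond the members, 60 genes of the same pathway were followed as 5 lists, whose counts stand beside the shares over all probes given above, 4.13% higher and 3.53% lower in PC3 and 2.40% and 2.65% in DU145. Of the 7 other ligand genes, with 9 probes, 0 probes were more than 2-fold higher in either line and 1 was lower in each. EBI3, a subunit of IL27 and IL35, read 27.8 in PC3-shC and 3.03 in PC3-shESS2 cells, at least 3.40-fold lower, and 34.1 and 18.1 in DU145. Oncostatin M (OSM) read 58.5 in DU145-shC and 7.27 in DU145-shESS2 cells by 1 probe, at least 7.38-fold lower. A second OSM probe read 11.2 and 13.4 in DU145, so the probes of this dim gene disagreed. Of the 3 other receptor genes matched, 0 probes passed 2-fold.

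The kinase and STAT genes had 13 probes, of which that of JAK2 passed 2-fold upward in PC3, while in DU145 0 were more than 2-fold higher and 1, of STAT5A, was lower. JAK2, a Janus kinase bound to gp130, read 184 in PC3-shC and 559 in PC3-shESS2 cells, a log2 ratio of 1.46 ± 0.21, and 66.6 and 50.3 in DU145, a log2 ratio of -0.45 ± 0.22. JAK1, the kinase on which gp130 chiefly depends, had log2 ratios of 0.30 and -0.15 by the 1 probe detected, and TYK2, another such kinase, -0.27 and 0.51. STAT5A, a neighbour of STAT3, was dim in PC3 and had a log2 ratio of -1.03 ± 0.24 in DU145. Of the 11 regulator genes, 1 probe was more than 2-fold higher and 0 lower in PC3, and 0 were past 2-fold in DU145. It was PIAS1, a SUMO ligase that restrains STAT factors, with 61.0 and 166 in PC3 and 177 and 233 in DU145.

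Genes known as STAT3 targets went in both directions. Of 28 probes compared in PC3, where STAT3 was not detected, 2 were more than 2-fold higher and 7 lower, with a median log2 ratio of -0.50 beside -0.032 over all probes. Of 26 compared in DU145, 3 were higher and 2 lower, with a median of 0.11 beside -0.027. The serum amyloid genes SAA1 and SAA2, acute-phase proteins with near-identical sequences whose probes may share transcripts, were the lowest. SAA1 read 9610 in PC3-shC and 3.71 in PC3-shESS2 cells, at least 1175-fold lower, and 81.0 and 21.6 in DU145, a log2 ratio of -1.95. The brighter SAA2 probe read 3220 and 4.70 in PC3, at least 394-fold lower, and 68.8 and 8.75 in DU145, at least 8.09-fold lower. SAA transcripts were thus lower in the same cells in which IL6 was higher.

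The other STAT3 targets past 2-fold did not all move the same way in both lines. NNMT, a nicotinamide methyltransferase, had log2 ratios of -4.09 in PC3 and 0.75 in DU145, and haptoglobin (HP) had -1.30 and 2.18. VEGFA, an angiogenic factor, had -1.12 and 0.58 by its brighter probe and -0.82 and 0.71 by the other. TIMP1, a metalloprotease inhibitor, read 9430 and 27200 in PC3, a log2 ratio of 1.39, and was level in DU145 at 0.09. The immediate-early factors FOS and JUNB had 0.83 and 0.08 in PC3 and 1.50 and 1.06 in DU145. The fibrinogen gene FGB was detected in PC3-shESS2 cells only, at least 5.79-fold above the control, and 1 of 3 probes of SERPINA3, a protease inhibitor, was at least 2.20-fold lower in PC3-shESS2 cells.

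**Figure D5:**
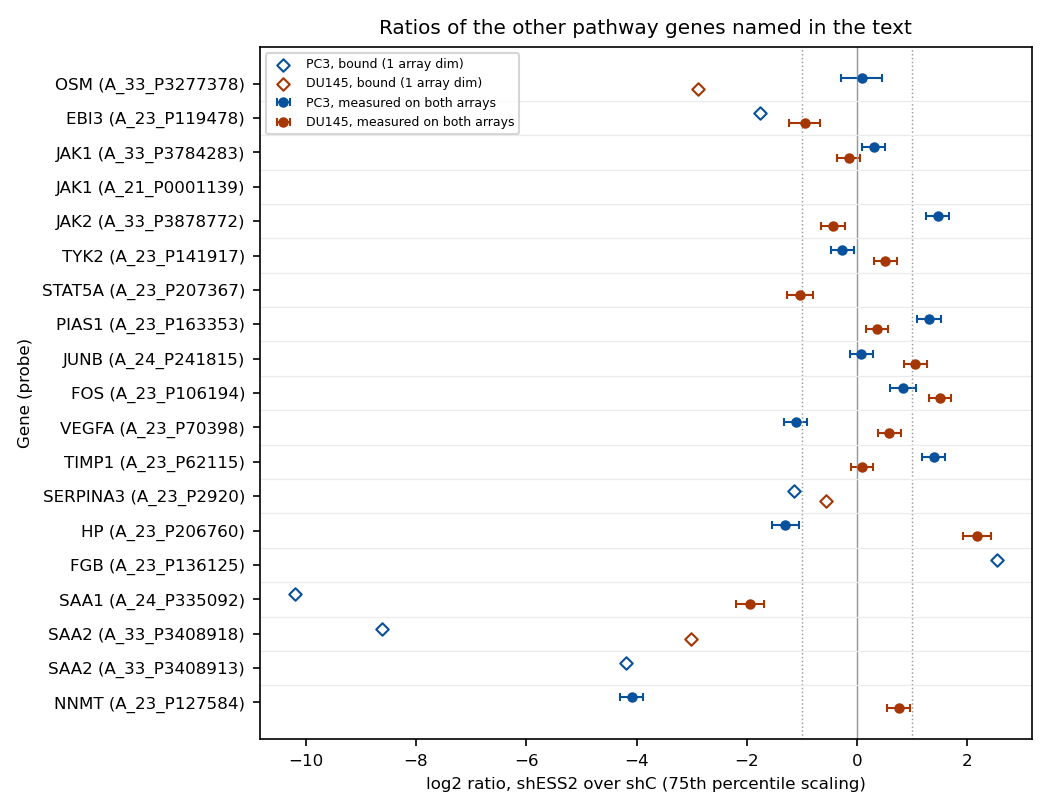
Log2 ratios of knockdown over control in PC3 (blue) and DU145 (brown) for the other pathway genes named in the text, with bars of 1 scanner error, open diamonds for bounds where 1 array was dim, and no marker where both were. JAK2 and TIMP1 lie at 1.46 and 1.39 in PC3 and at -0.45 and 0.09 in DU145, and SAA1 lies at -10.20 in PC3.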

How the data were processed

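RNA from PC3 and DU145 cells carrying control or ESS2 shRNA was labelled with Cy3 from 0.1 µg of total RNA and read on 1 array for each condition. The authors deposited the Feature Extraction output (12.1.0.3 for PC3, 12.0.3.1 for DU145), in which the spot intensity had its background subtracted and no scaling between arrays was applied. They also deposited scaled intensity values, which were the processed signals multiplied by 1 factor for each array, to within 0.5%.

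From the processed signal, control spots and outlier spots were left out, spots of 1 probe were averaged, log2 was taken and each array's 75th percentile subtracted. Probes flagged as well above background on either array of a pair were compared, and a dim value was raised to the lowest signal well above background on its array, which makes the ratio a bound. Where both were dim, no ratio was given. Symbols came from matching accessions to a RefSeq table of GRCh38.p14, while the array annotation is on hg19, so the table served only for names, promoter windows and gene order. The PC3 files carry a newer annotation than the DU145 files, and 15 of the 21 member probes have the same accession in both.

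The members and lists were chosen with earlier results of these data known. The text names all members, the targeted gene, 2 reference genes, JAK1, JAK2, TYK2, listed pathway genes past 2-fold, except for an item that is not reported here, and the 5 genes nearest to IL6; KAT2A, STAT5B, CAVIN1, ATP6V0A1, DHX58 and the STAT3 window were chosen after their values were seen. With 1 array for each condition no test was made, and the number of arrays limits the precision. The alternatives were median scaling, quantile normalization, the authors' scaled values, normexp with an offset of 50 on median spot signals, plain values of dim spots, a filter on both arrays or none, outlier spots kept, and the mean or the brightest of a gene's probes. The calculation was tested on simulated data with known fold changes put on bright probes only, so the rule for dim values was not tested. Python 3.11.15, numpy 2.4.6, pandas 2.3.3, matplotlib 3.10.9, R 4.3.3 and limma 3.58.1 (for normexp) were used.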

Additional observations from a re-analysis of the deposited data

Results flagged for a closer look

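For 16 of the 76 probes of the pathway lists the ratios of the lines had opposite signs, each beyond its scanner error. The same share over all probes was not taken, so nothing is read from this count. Of the 16, 4 were also past 2-fold in at least 1 line. For these 4, the log2 ratio in DU145 minus that in PC3 was -1.91 for JAK2, 1.7 for the brighter VEGFA probe, 3.48 for HP and 4.84 for NNMT. Each value rests on 1 array for each condition, and the difference was not tested. Slide and line cannot be told apart. No member probe had opposite signs beyond the scanner error in both lines.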

How the results depend on the processing

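The ratio of the brighter IL6 probe kept its direction and stayed past 2-fold in both lines under all 8 alternatives that apply to a single probe. Plain values of dim spots, the filter on both arrays or none, and outlier spots kept did not act on this probe and left its ratio unchanged. Only the other scalings, quantile normalization and normexp could move it. With the mean of both IL6 probes, the second of which gave only a bound, the IL6 ratio fell from 2.62 to 1.62 in PC3 and from 2.48 to 1.43 in DU145. In PC3, the count of member probes more than 2-fold higher was 3, and it was 5 with the authors' scaled values, where both OSMR probes passed, and 1 after normexp or with the filter on both arrays, under both of which no IL6R probe passed. In DU145 it was 2, and 1 after normexp, with only the brightest probe of a gene, or with the mean of a gene's probes. Between control cells, 1 was higher and 10 lower. Median scaling gave 2 and 6. For the lower ones, normexp and the filter on both arrays gave 6, and the brightest probe or the mean of probes gave 4. No member ratio past 2-fold changed sign. Over all probes, normexp gave 349 higher and 460 lower in PC3 in place of 1247 and 1064, and 185 and 102 in DU145 in place of 733 and 811. In DU145, plain values of dim spots gave 1187 higher, and the filter on both arrays gave 430 and 454. Between control cells normexp gave 3302 lower and the filter on both arrays 4568, in place of 7070. Signals near background limit IL6R, the second IL6 probe and STAT3 in PC3, where only bounds or no ratio could be given. No array could be left out. The labels give no replicate numbers. Control and knockdown arrays pair by line, but a fit with the line as a block was not made, since the members were chosen on these ratios.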
